A study of Homo sapiens with 6 samples.

Results

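The muscle nicotinic acetylcholine receptor and the proteins that gather it at the endplate were measured as 10 genes, chosen by name: the receptor subunits CHRNA1, CHRNB1, CHRND, CHRNE and CHRNG (5 genes) and the endplate organizers AGRN, LRP4, MUSK, DOK7 and RAPSN (5 genes). They were found by gene name in the array files and carried 15 probes, all of which passed the filter on spots that were not found, out of 36469 probes and 16172 genes that could be tested. RH36 cells are a line from embryonal rhabdomyosarcoma, a childhood tumor of cells committed to the muscle lineage, and are negative for the PAX3/FOXO1 translocation. The pre-miR-27a arrays (n = 3) held RNA of RH36 cells that had received a precursor molecule of miR-27a, and the pre-control arrays (n = 3) that of RH36 cells given a negative control precursor. The labels give 10 nM of pre-miR-27a, a test of the miRNA 24 hours later and, for the pre-miR-27a arrays only, analysis 48 hours after transfection, whereas the methods of the study give another concentration, and which applies was not settled. All cells came from 1 line and normal muscle was not analysed here, so levels have no reference outside these arrays. The molecule that was raised is shown because its seed (bases 2 to 8, in capitals) is what pairs with messenger RNAs; its sequence is that of RefSeq, from GRCh38.p14 chromosome 19, minus strand.
hsa-miR-27a-3p: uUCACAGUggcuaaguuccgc

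The receptor is a pentamer of alpha, beta and delta subunits with either a gamma subunit, in fetal and denervated muscle, or an epsilon subunit, in the adult endplate. Nerve-derived agrin binds LRP4, which activates the receptor kinase MUSK. DOK7 is the cytoplasmic adaptor that activates MUSK from inside the cell, and rapsyn, the product of RAPSN, anchors the receptors in clusters under the nerve terminal. The subunit genes are known targets of the myogenic E-box factors such as MyoD and myogenin, and the switch from gamma to epsilon accompanies muscle maturation. In messenger RNA extracted from a culture, fewer cells expressing a gene and less of its RNA per cell cannot be told apart.

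Signals below are quantile-normalized log2 intensities, a difference is the pre-miR-27a mean minus the pre-control mean in log2 units, and a gene is given by its brightest probe unless another is named. Signals of different probes are not compared as levels, since probes differ in brightness. Slide 1 carried the 3 pre-control arrays and slide 2 the 3 pre-miR-27a arrays, so the transfection cannot be told apart from the slide in any difference given here. The median local background was 74.5 to 76 units on the former and 52.5 to 53 on the latter. Each of 8 spike-in transcripts gave more signal on the second slide, by 0.05 to 0.42. Of the myogenic markers, DES, MYOD1, MYOG, CDH15 and MYF6 were well above background on all 6 arrays and MYF5 on none. The 5 measured were all lower on pre-miR-27a arrays, with a median difference of −0.35. Limma called 0 of them (3 at an unadjusted p under 0.05, as had 22.9% of all genes). With the replicate block it called 3 of these markers, where it called 13.6% of all genes: MYOD1, MYOG and CDH15 (−0.35, adjusted p = 0.0561, and 0.0457 with the block). Their part in the values of the 10 genes was not tested. Among 14 markers of other cell types with a probe in the fit, PTPRC, PECAM1, EPCAM and CDH1 were above background on none. The 5 above it on every array were CD3E, KRT14, VWF and the motor neuron markers MNX1 and ISL1, while CHAT, also of motor neurons, was above it on 1. Of these, CD3E and KRT14 were called lower, at −0.44 and −0.82, where limma called 6.64% of all genes in either direction. Their other probes were at −0.05 and 1.14, the latter well above background on 1 array and called higher with the replicate block (adjusted p = 0.0334). The replicate block called 4 of the 14, where it called 13.6% of all genes. It added SOX10 lower and S100B higher, each well above background on 1 array only.

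The 10 genes were well above background on all 6 arrays, CHRNE and CHRNG included. By the brightest probe, limma called 0 of the 10 genes at an adjusted p under 0.05, where it called 6.64% of all genes in either direction. Without adjustment, 1 of the 10 (CHRNG) had a p under 0.05, fewer than the 22.9% of all genes that did. SAM at a false discovery rate of 5% called 0 of the 10 genes by the brightest probe. Over the whole array it called 1058 of 36469 probes, among them 1 of the 15 probes of these genes. Limma with the replicate number as a block called 0 of the 10, against 13.6% of all genes. Of the 10 differences, 4 were above 0 and 6 below, with a median of −0.11 beside −0.04 over all genes. Counting any probe of a gene, 1 of the 10 (CHRNA1) was called, where 10.3% of all genes were.

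**Figure D1:**
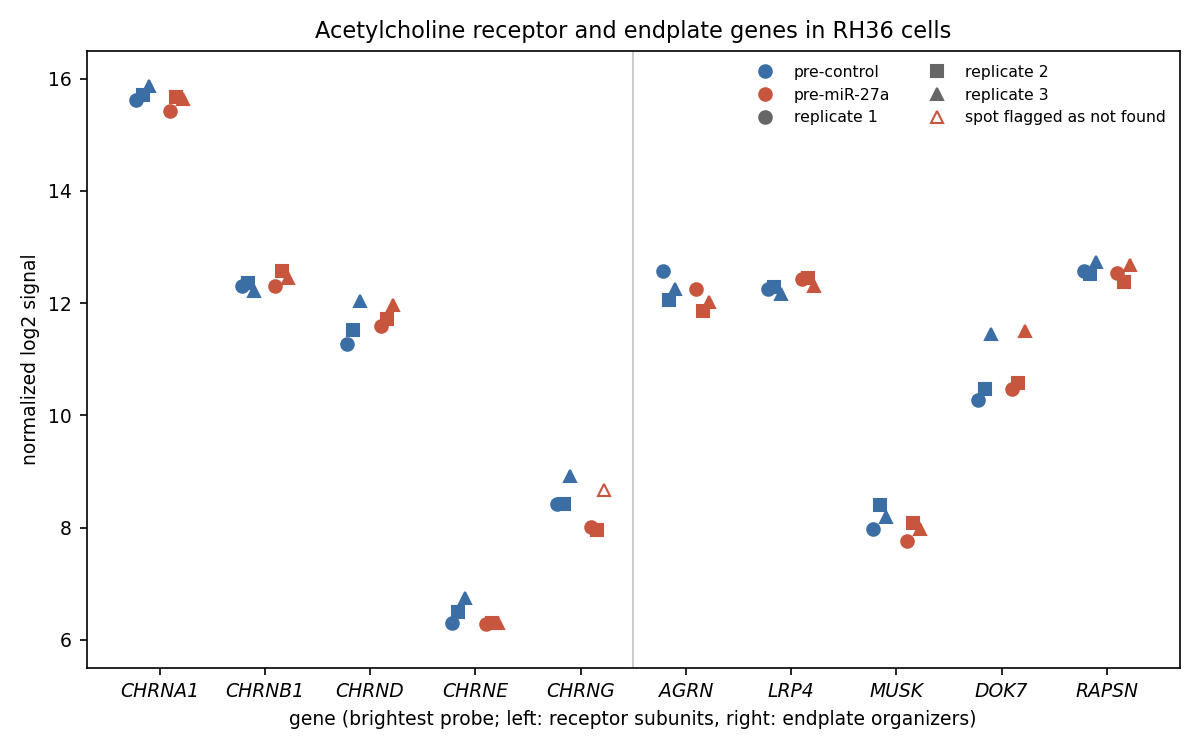
Normalized log2 signal of the brightest probe of each gene (x axis) on every array, with pre-control arrays in blue, pre-miR-27a arrays in red and the replicate number as the symbol. The groups overlapped in 8 of the 10 genes among spots that were found, and replicate 3 of DOK7 stood above the other replicates in both groups; the open triangle is a CHRNG spot flagged as not found.

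The ligand-binding alpha subunit, CHRNA1, had a different answer from each of its probes, of which 1 was lower and 1 was called higher. Its brightest probe (NM_000079, chromosome 2 from 175323083 to 175323142 on hg18) was at 15.62, 15.71 and 15.87 on pre-control arrays and at 15.43, 15.67 and 15.63 on pre-miR-27a arrays. The groups overlapped, and the difference of −0.15 (standard error 0.11, adjusted p = 0.456 with limma) was within the spread between arrays. The other probe (BC006314, from 175326211 to 175326270) was at 11.07, 10.92 and 11.33 on pre-control arrays and at 11.93, 12.08 and 12.16 on pre-miR-27a arrays. On that probe the groups were fully separate, with pre-miR-27a higher. It rose by 0.95 (standard error 0.13, adjusted p = 0.0216 with limma), a 1.94-fold change, and was also called with the replicate block (adjusted p = 0.0334).

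The array files list the brightest CHRNA1 probe with RefSeq transcripts of the gene and the other probe with the cDNA BC006314, their starts being 3128 bases apart. No annotation of hg18 was used here, so the exon or intron of either probe is not given. Within each array, the log2 signal of the BC006314 probe minus that of the brightest probe was −4.63 ± 0.15 (SD, n = 3) on pre-control arrays. On pre-miR-27a arrays it was −3.52 ± 0.06 (SD, n = 3). This within-array difference shifted by 1.11, and the two-sided exact permutation test gave p = 0.1, as low as 3 arrays against 3 can go. Under 75th percentile scaling, where the median of all probes was −0.09, the brightest CHRNA1 probe was at −0.33. Averaging both probes turned the CHRNA1 difference to 0.40 (adjusted p = 0.117). With all arrays, the BC006314 probe was called in each of the 9 alternatives run for it (difference 0.93 to 0.95, adjusted p with limma 0.0057 to 0.0334). Its call was lost when any 1 of the 6 arrays was left out, with a difference of 0.86 to 1.07 and an adjusted p of 0.0502 to 0.0805. Of those 6 fits 4 called no probe on the whole array, so a lost call there is not particular to this probe.

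**Figure D2:**
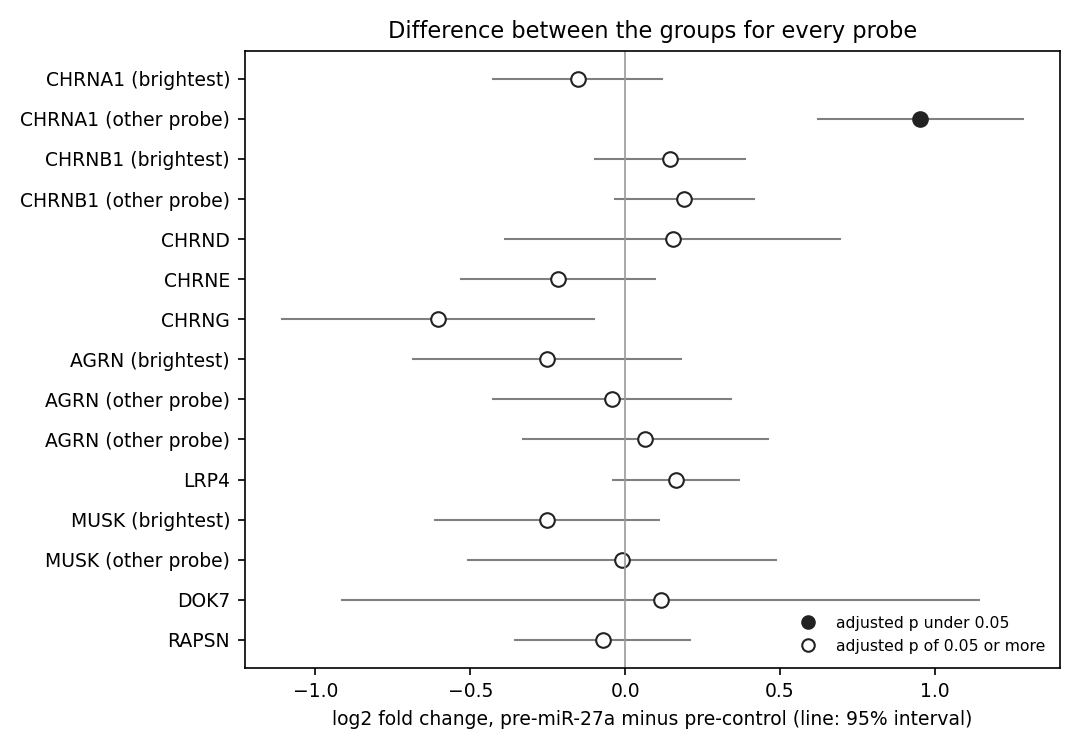
Difference between pre-miR-27a and pre-control arrays in log2 units (x axis) for each of the 15 probes, with its 95% interval as a line. The 1 filled point, the CHRNA1 probe at 0.95, had an adjusted p under 0.05, and the other 14 did not.

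CHRNB1 encodes the beta subunit, which fetal and adult receptors share. Its brightest probe (NM_000747, chromosome 17 from 7301019 to 7301078) was at 12.31, 12.36 and 12.21 on pre-control arrays and at 12.31, 12.57 and 12.44 on pre-miR-27a arrays. These ranges overlapped, with a difference of 0.15 (95% interval −0.10 to 0.39). The other CHRNB1 probe was at 0.19 (adjusted p = 0.263 with limma), with no overlap between the groups.

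CHRND, the gene of the delta subunit and on chromosome 2 the neighbour of CHRNG, was at 11.28, 11.52 and 12.03 on pre-control arrays and at 11.60, 11.71 and 11.97 on pre-miR-27a arrays (NM_000751, from 233108371 to 233108430). Replicate 3 was the highest array of either group, and the groups overlapped. The difference was 0.15 with a 95% interval of −0.39 to 0.69. Without pre-control replicate 1 it was −0.01.

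The fetal gamma subunit, CHRNG, had the largest difference of the 10 genes and the 1 that depended most on a filter. Its single probe (NM_005199, chromosome 2 from 233114470 to 233115422, a listed interval of 953 bases) was at 8.42, 8.42 and 8.92 on pre-control arrays and at 8.01 and 7.95 on pre-miR-27a replicates 1 and 2. The spot of pre-miR-27a replicate 3 was flagged as not found and was left out of the fit. With those 5 arrays the groups did not overlap, and the difference was −0.60 (standard error 0.19, 95% interval −1.11 to −0.10, unadjusted p = 0.0278, adjusted p = 0.145 with limma). No overlap with lower pre-miR-27a values was found in 19.1% of all genes and with higher values in 12%, so 1 gene of the 10 in each direction, CHRNG and LRP4, was near or under the background.

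The flagged CHRNG spot was well above background and positive and significant, with an intensity of 383 units and a normalized log2 signal of 8.67. On pre-miR-27a replicate 3 such spots, flagged as not found but well above background, numbered 867, or 24.9% of those not found. With that spot kept, pre-miR-27a arrays averaged 8.21 ± 0.40 (SD, n = 3) against 8.59 ± 0.29 (SD, n = 3), and the groups overlapped. The CHRNG difference was then −0.38 (adjusted p = 0.427). With the replicate block it was −0.44 (adjusted p = 0.0700), again without that array.

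The adult epsilon subunit, CHRNE (NM_000080, chromosome 17 from 4742659 to 4742718), had the dimmest probe of the set. Its log2 signal was 6.29, 6.49 and 6.74 on pre-control arrays and 6.28, 6.30 and 6.29 on pre-miR-27a arrays. Pre-miR-27a values lay close together at the lower end of the pre-control range, and the groups overlapped. The difference was −0.22 (standard error 0.13, 95% interval −0.53 to 0.10, adjusted p = 0.361 with limma). In intensity units before normalization, from which the scanner software had subtracted background, CHRNE averaged 97.5 on pre-control and 74.1 on pre-miR-27a arrays. The local background of its spots averaged 75.7 and 48. The intensity difference after that subtraction was −23.4 units and the background difference −27.7 units, and the part of the background in the former was not tested. With the normexp background correction the CHRNE difference was −0.04. For CHRNG the same quantities were −109 and −23.5 units over all 6 spots, and the intensity difference was −153.5 units without the spot flagged as not found. CHRNE overlaps C17orf107 and MINK1 in the RefSeq gene table, and CHRNG overlaps TIGD1.

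**Figure D3:**
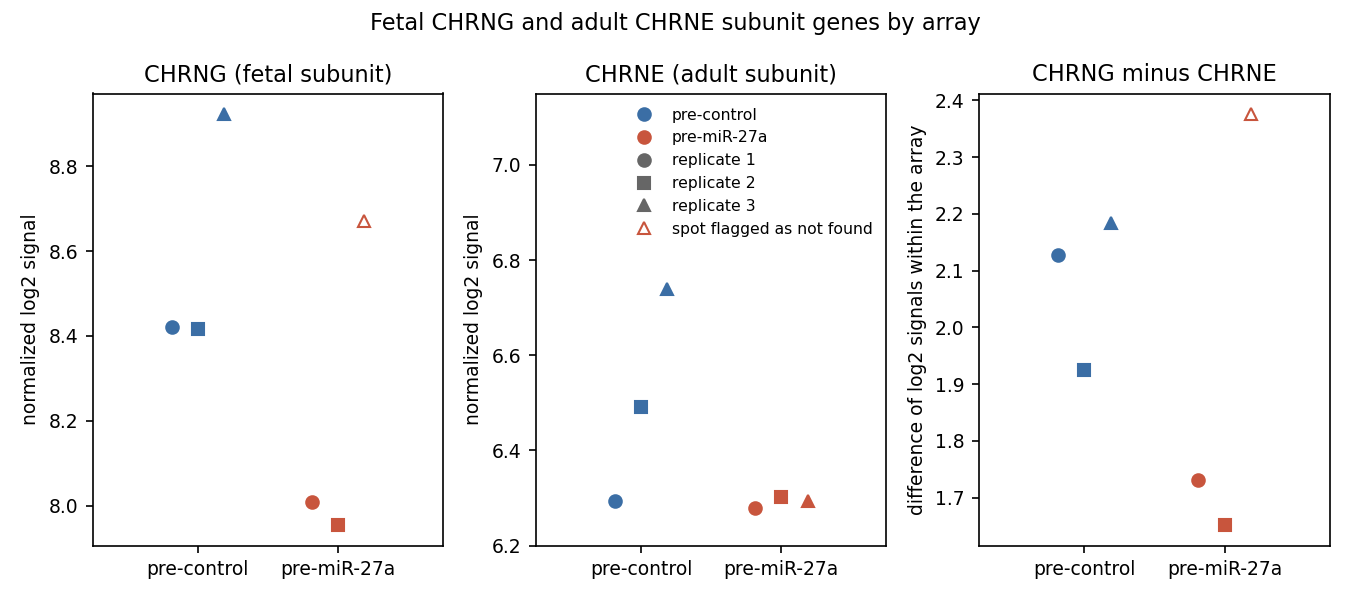
Normalized log2 signal of CHRNG and CHRNE on each array and, at the right, the difference of the 2 signals within the array. The open triangle is the spot of pre-miR-27a replicate 3 that was flagged as not found; the other pre-miR-27a values of CHRNG minus CHRNE, at 1.73 and 1.65, lay below all pre-control values.

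Fetal against adult subunit was followed as the within-array difference of the log2 signals of CHRNG and CHRNE, whose absolute size has no meaning between probes but whose change between groups does. It was 2.13, 1.92 and 2.18 on pre-control arrays and 1.73 and 1.65 on pre-miR-27a replicates 1 and 2. The mean was 2.08 ± 0.14 (SD, n = 3) in the former and 1.69 ± 0.06 (SD, n = 2) in the latter. The shift was −0.39, and the two-sided exact permutation test gave p = 0.1, as low as 3 arrays against 2 can go. With the flagged spot kept the shift was −0.16 (exact permutation p = 0.5). This design allows no p under 0.05, so the test leaves a change in either direction undecided.

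Promoter windows of the alpha, delta and epsilon subunit genes are shown because E-box and ETS factors, measured on the same arrays, are known to act on them. The windows run from 250 bases before to 50 after the RefSeq start on GRCh38.p14, and 6 of the 10 genes had one. Capitals mark E-boxes (CANNTG) and N-boxes (CCGGAA on either strand), which did not overlap each other here. The CHRNA1 window is chr2:174764423-174764722 on the minus strand, that of CHRND chr2:232525910-232526209 on the plus strand and that of CHRNE chr17:4903049-4903348 on the minus strand.
CHRNA1: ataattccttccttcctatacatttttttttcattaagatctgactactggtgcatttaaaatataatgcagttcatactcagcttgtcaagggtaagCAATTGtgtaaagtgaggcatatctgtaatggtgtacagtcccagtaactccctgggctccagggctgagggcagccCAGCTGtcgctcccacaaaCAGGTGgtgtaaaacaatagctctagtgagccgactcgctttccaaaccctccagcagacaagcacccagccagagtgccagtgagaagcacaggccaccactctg
CHRND: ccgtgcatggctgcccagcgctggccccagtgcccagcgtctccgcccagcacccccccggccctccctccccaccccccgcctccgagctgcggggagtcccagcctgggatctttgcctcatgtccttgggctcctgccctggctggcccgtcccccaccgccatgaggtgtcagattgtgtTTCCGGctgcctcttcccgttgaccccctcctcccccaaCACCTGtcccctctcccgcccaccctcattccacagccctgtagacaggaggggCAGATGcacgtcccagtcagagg
CHRNE: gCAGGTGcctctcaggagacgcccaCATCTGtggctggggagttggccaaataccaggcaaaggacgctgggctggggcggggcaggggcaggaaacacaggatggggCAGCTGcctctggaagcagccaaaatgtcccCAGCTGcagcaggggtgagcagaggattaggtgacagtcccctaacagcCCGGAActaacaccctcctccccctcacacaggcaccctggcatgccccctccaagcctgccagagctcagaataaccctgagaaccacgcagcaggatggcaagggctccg

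An E-box was found in 68.7% of the 35116 promoter windows of the same length and an N-box in 17.2%. CHRNA1 held 3 E-boxes and no N-box, with 1 E-box of the CAGCTG form, which 17.9% of all windows held, 75 bases before the start. CHRND held 2 E-boxes and 1 N-box, the latter 66 bases before the start. CHRNE held 4 E-boxes, 2 of them CAGCTG, and 1 N-box 62 bases before the start. CHRNB1 had 4 E-boxes and MUSK 3, both without an N-box. The first DOK7 window had 1 E-box and the second had none. A match says only that these letters lie in the window.

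The organizers were given in the order of the signal from nerve to receptor cluster. AGRN encodes agrin, the nerve-derived ligand that muscle and other cells also make. Its brightest probe (NM_198576, chromosome 1 from 981049 to 981108) was at 12.58, 12.05 and 12.26 on pre-control arrays and at 12.26, 11.85 and 12.02 on pre-miR-27a arrays. Replicate 1 was the highest and replicate 2 the lowest in both groups, and the groups overlapped. The difference was −0.25 (standard error 0.17, adjusted p = 0.440 with limma, and 0.0692 with the replicate block). The other AGRN probes were at −0.04 and 0.06, so the direction was not shared by the 3 probes, whose mean was at −0.08.

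LRP4, the agrin receptor that pairs with MUSK (NM_002334, chromosome 11 from 46835125 to 46835184), was at 12.26, 12.28 and 12.17 on pre-control arrays. It was at 12.44, 12.46 and 12.31 on pre-miR-27a arrays. The groups did not overlap, but the difference was 0.16 (standard error 0.08, 95% interval −0.04 to 0.37, adjusted p = 0.285 with limma). The spike-in transcripts were higher on the same slide by a median of 0.28, and their part in this difference was not tested.

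MUSK, the receptor kinase of the endplate (NM_005592, chromosome 9 from 112602896 to 112602955), was at 7.98, 8.40 and 8.20 on pre-control arrays and at 7.76, 8.08 and 7.98 on pre-miR-27a arrays. The groups overlapped, and replicate 1 was the lowest array in both. Its difference of −0.25 (standard error 0.15) had an adjusted p of 0.356 with limma and 0.0665 with the replicate block. The other MUSK probe, whose start lies 154 bases away, was at −0.01 (adjusted p = 0.983), and the mean of both probes was at −0.13. MUSK averaged 301 intensity units on pre-control and 238 on pre-miR-27a arrays.

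DOK7, the adaptor of MUSK (NM_173660, chromosome 4 from 3465944 to 3466003), varied more between replicate numbers than any other of the 10 genes. It was at 10.27, 10.48 and 11.45 on pre-control arrays and at 10.47, 10.57 and 11.50 on pre-miR-27a arrays. Replicate 3 exceeded the mean of the other replicates by 1.07 in the former group and by 0.98 in the latter. The difference between the groups was 0.11 (standard error 0.41, 95% interval −0.91 to 1.14), and it ranged from −0.21 to 0.47 when single arrays were left out. Blocking on the replicate number brought the standard error to 0.06, and DOK7 was still not called (adjusted p = 0.262).

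RAPSN, which anchors the receptor in the cluster (NM_032645, chromosome 11 from 47420881 to 47420940), was at 12.57, 12.52 and 12.73 on pre-control arrays and at 12.54, 12.38 and 12.69 on pre-miR-27a arrays. The groups overlapped and replicate 3 was again the highest in both. The difference was −0.07 (standard error 0.11, 95% interval −0.35 to 0.21), and −0.13 with 75th percentile scaling.

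For most of the 10 genes the range over replicate numbers (each number also being a place on the slide) exceeded the difference between the groups. These are unlike measures, since a range over more means, each of fewer arrays, tends to be the larger one without any effect. The array with the highest signal carried the same number in both groups for 8 of the 10 genes, against 60.2% of all genes, and the lowest for 9 of the 10, against 58.3%, with the flagged CHRNG spot kept. The range of the replicate means exceeded the size of the group difference in 9 of the 10 genes, against 63.0% of all genes. The median range over the 10 genes was 0.32 and the median size of a group difference 0.16, beside 0.27 and 0.19 over all genes. Because these genes were counted by name and not compared by a test, the counts are a description.

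**Figure D4:**
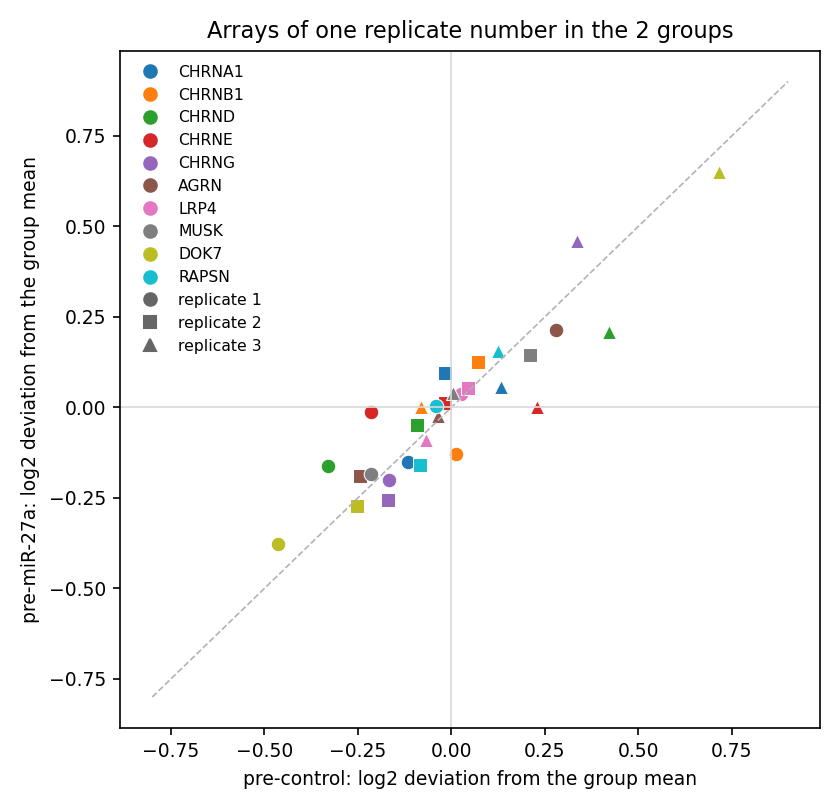
Deviation of each array from its group mean in log2 units, for pre-control arrays (x axis) against the pre-miR-27a array of the same replicate number (y axis), with a colour per gene and a symbol per replicate number. The dashed line marks equal deviations, and DOK7 replicate 3 is the point farthest to the upper right.

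Fitted beside the transfection, the replicate number had an unadjusted p under 0.05 in 5 of the 10 genes, against 28.9% of all genes, and an adjusted p under 0.05 in 0 of the 10, as in 0% of all genes, with limma. The 5 were CHRND, CHRNG, AGRN, MUSK and DOK7. DOK7 had the smallest p of them (adjusted p = 0.0723). The replicate number is also the place on the slide, so replicate and place cannot be told apart. The labels do not say whether cultures or labelling went by that number.

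Factors known to act on the subunit genes were followed as a list of 12, of which 10 had a probe in the fit. Of these limma called 0 by the brightest probe, with 3 at an unadjusted p under 0.05 (22.9% of all genes). With the replicate block it called 3, where it called 13.6% of all genes: MYOD1 and MYOG lower and TCF4 higher. Counting any probe, limma called 2 of the 10, where it called 10.3% of all genes: TCF12, an E protein, on a probe at 0.58 (adjusted p = 0.0270) and SIK1, a kinase that acts on class II histone deacetylases, on a probe at −0.75 (adjusted p = 0.0307). The brightest probes of these genes were at 0.13 and −0.39. MYOG, the gene of myogenin, was at 9.72, 10.40 and 10.69 on pre-control arrays and at 8.87, 9.42 and 9.67 on pre-miR-27a arrays. All pre-miR-27a values were below all pre-control values, the nearest being pre-miR-27a replicate 3 and pre-control replicate 1. Its difference was −0.95 (adjusted p = 0.140 with limma, and 0.0334 with the replicate block). MYOD1 was at −0.45 (adjusted p = 0.0787 and 0.0363, in that order). In both groups MYOG, MYOD1, CHRND and DOK7, set side by side after their values were seen, had replicate 3 highest and replicate 1 lowest, while TCF3, TCF4, TCF12 and MYF6 had other orders. The same highest and the same lowest array in both groups was found for 40.9% of all genes. The differences of CHRND and DOK7, at 0.15 and 0.11, were not called.

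**Figure D5:**
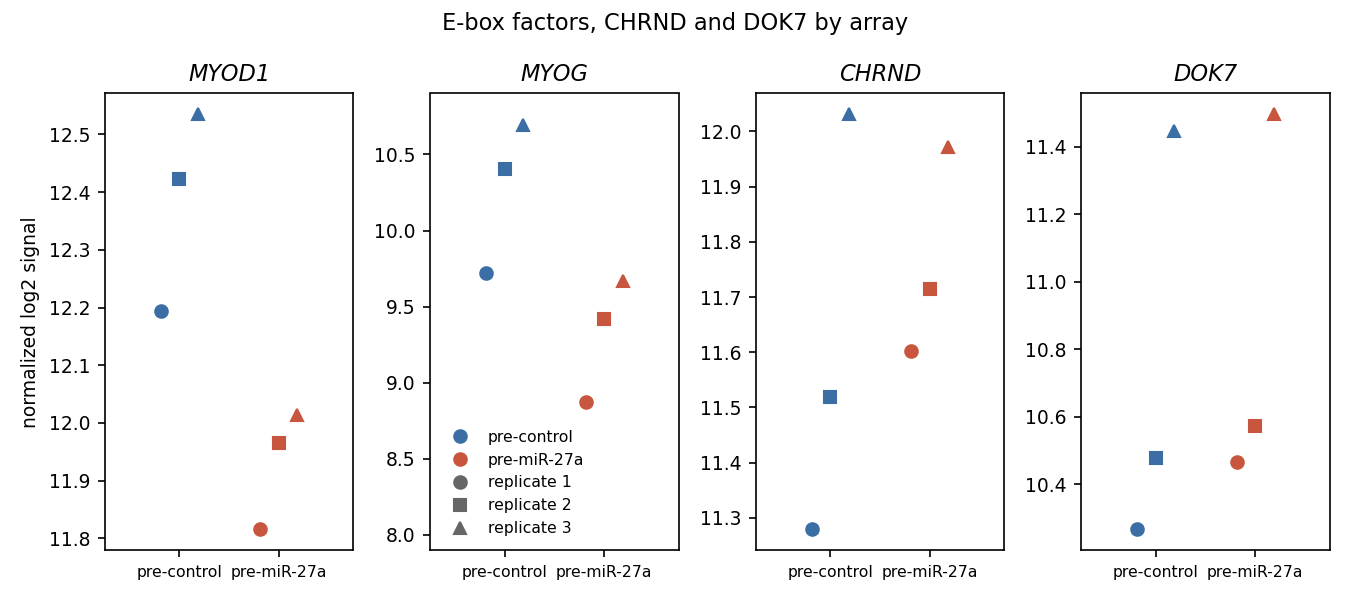
Normalized log2 signal of the E-box factors MYOD1 and MYOG and of CHRND and DOK7 on each array, chosen after their values were seen, each panel with its own y axis. In all 4 genes replicate 3 was the highest and replicate 1 the lowest array of its group, while the pre-miR-27a arrays stood below the pre-control arrays for MYOD1 and MYOG only.

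DACH2, a repressor of myogenin in innervated muscle, and MYF5 had no array well above background. TCF4, an E protein that pairs with the myogenic factors, was at 0.35 (adjusted p = 0.215, and 0.0418 with the replicate block). GABPA, the ETS factor of the N-box, was at 0.34 (adjusted p = 0.171, and 0.0484 with the replicate block).

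Among 29 other genes of the endplate limma called 0 by the brightest probe, with 5 at an unadjusted p under 0.05 (22.9% of all genes) and a median difference of −0.05. Counting any probe, 3 were called, where 10.3% of all genes were, among them SNTB1, a syntrophin, on a probe at 1.29 (adjusted p = 0.0281), and the kinase ABL1 on a probe at 0.50 (adjusted p = 0.0406). With the replicate block 4 of the 29 were called, near the 13.6% of all genes that it called: ACHE and CTTN lower and ERBB3 and GABPA higher. ACHE, the acetylcholinesterase that ends transmission in the cleft, was at 7.98, 8.17 and 8.47 on pre-control arrays and at 7.56, 7.76 and 7.89 on pre-miR-27a arrays. No values overlapped, and the difference was −0.47 (adjusted p = 0.142, and 0.0374 with the replicate block). CTTN, the actin regulator cortactin, was at −0.45 (adjusted p = 0.0525 and 0.0355), and ERBB3, a neuregulin receptor, at 0.31 (adjusted p = 0.293 and 0.0469).

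Of 11 neuronal acetylcholine receptor subunits, 10 had a probe in the fit. Limma called 0 of them, with 3 at an unadjusted p under 0.05 (22.9% of all genes). With the replicate block, which called 13.6% of all genes, CHRNA4 and CHRNB3 were called lower. CHRNA4 was at −0.75 (adjusted p = 0.0656 unblocked and 0.0487 blocked) and CHRNB3 at −0.39 (adjusted p = 0.0718 and 0.0487). The other CHRNA4 probe went the other way, at 0.57 (adjusted p with limma 0.668 unblocked and 0.441 blocked). It was well above background on 1 pre-control and 3 pre-miR-27a arrays. CHRNA2 and CHRNB4 had no array well above background. Of 7 genes of receptor assembly and glycosylation, such as GFPT1 and DPAGT1, in which variants cause congenital myasthenic syndromes, limma called 0, with 2 at an unadjusted p under 0.05 (22.9% of all genes). The block called 0 of the 7 by the brightest probe (13.6% of all genes). By any probe it called 1, GMPPB, with adjusted p-values of 0.0425 and 0.0392 on its other probes, at −0.33 and −0.47. RIC3, a receptor chaperone, had no array well above background.

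The genes outside the set whose signals over the 6 arrays were most like that of CHRNG, with the flagged spot kept, were LAT2, FUOM and MAOA, with Pearson correlations of 0.997, 0.995 and 0.993 among 12933 genes well above background on all arrays. For CHRNE they were NSD1, ACTBL2 and SORD, at 0.994, 0.994 and 0.980. None of these 6 genes was called. With 6 arrays that share their slides and replicate numbers, correlations of this size describe the order of the arrays and carry no test.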

How the data were processed

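RNA of RH36 cells was measured on 6 one-colour Agilent arrays. The deposited scanner files hold Cy3 intensities, which the authors' scanner software background-subtracted within each array, with quality flags per spot, and probe positions on hg18. The authors also deposited a table of quantile-normalized log2 values, used as an alternative. From the scanner files, processed intensities were log2-transformed, control spots removed and arrays quantile-normalized. Spots that the flags marked as not found were treated as missing, replicate spots were averaged, and probes missing on more than 1 of 6 arrays were removed. Groups were compared with limma 3.58.1 in R 4.3.3, with Benjamini-Hochberg adjustment over all 36469 probes and a threshold of 0.05, and the code was checked on simulated data. For CHRNG and CHRNE, and for the CHRNA1 probes, the within-array difference of the log2 signals was compared between the groups by exact permutation.

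The 10 genes and the other lists were chosen with earlier results of these data known. All probes of the 10 genes are named, and of the other lists the genes that were called or had no array well above background. The counts over replicate numbers, the count of genes with any probe called and the comparison of the CHRNA1 probes were chosen after seeing the data.

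The labels number biological replicates 1 to 3 in each group. Deviations from the group means over 31717 probes correlated at 0.396, 0.456 and 0.409 between arrays of the same number and at −0.27 to −0.12 between arrays of different numbers. The arrays were therefore also fitted as paired by number, with the replicate block. The main limma fit, SAM and the exact permutation p-values printed here left this pairing out. Standard errors and intervals are those of the unpaired fit unless the block is named. Alternatives were 75th percentile scaling, normexp with an offset of 50, other filters, the replicate block, a variance trend, averaged probes, SAM over 20 relabellings, an adjusted p under 0.10 and each array left out. Precision is limited by having 3 arrays in a group, with a standard error of 0.14 (median over probes) for a log2 difference. Between 69.9% and 78.0% of the 43376 spots were well above background on an array, and no spot was saturated. Neighbouring genes and sequences are those of the RefSeq tables for GRCh38.p14.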

Additional observations from a re-analysis of the deposited data

How the results depend on the processing

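With 3 arrays a group and a gene counted by its brightest probe or by the mean of its probes, 0 of the 10 receptor and endplate genes were called under any alternative run. With single arrays left out the count was 0 to 0, but 4 of those 6 fits called no probe on the whole array and the others 81 and 1276, against 2856 with all arrays, so these counts say nothing about stability. Among the 29 other endplate genes, where limma called 0, the count was 2 with normexp, 1 with the filter on spots well above background, 1 with the filter on positive and significant spots, 4 with the replicate block, 1 with the deposited log2 values and 2 with the variance trend. Leaving out arrays gave 0 to 0, with the same limit. With normexp limma called 1 neuronal subunit, 1 assembly gene and 2 regulators, all lower, and with the filter on spots well above background 1 neuronal subunit, also lower. Over the whole array these settings also called more probes than the 2856 of the main fit. Of 36469 probes, normexp called 3539, the replicate block 5421 and the variance trend 3378. The filter on spots well above background called 3970 of 28914 probes. That on positive and significant spots called 3309 of 33189, and the deposited values gave 3343 of 33169. The shift of CHRNG minus CHRNE, −0.39, was −0.16 without a filter and with either of the other filters, and −0.16 with the deposited values, all of which keep the spot flagged as not found; with single arrays left out it ran from −0.46 to −0.33, and without pre-miR-27a replicate 1 or 2 it gave no value. With the replicate block it was −0.33, over the 2 pairs that remain. The replicate block changed no call of the 15 probes, and the BC006314 probe of CHRNA1 was called in all 9 alternatives run for it with all arrays.

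Directions changed for the mean of both CHRNA1 probes, at 0.40, and for the MUSK probe at −0.01, which was at 0.00099 with 75th percentile scaling. With single arrays left out, CHRND ran from −0.012 to 0.36, DOK7 from −0.21 to 0.47, RAPSN from −0.15 to 0.0062, the AGRN probes other than the brightest from −0.16 to 0.071 and from −0.048 to 0.21, and the other MUSK probe from −0.16 to 0.15. Other differences kept their sign but moved: AGRN from −0.37 to −0.11, CHRNE from −0.32 to −0.10, CHRNA1 from −0.21 to −0.08, MUSK from −0.36 to −0.15 and CHRNB1 from 0.08 to 0.21. None of these was called, and the cause was not tested.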
